A study of Mus musculus with 4 samples.

Results

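The genes of the major milk proteins were followed in mouse thymic epithelial cells (TECs), the stromal cells that train developing T cells, in which the homeobox factor gene Meis1 had been deleted by tamoxifen. The 8 genes were the caseins Csn1s1, Csn1s2a, Csn1s2b, Csn2 and Csn3, the whey protein genes Lalba and Wap, and Wfdc18, a relative of Wap that the arrays list under its older name Expi. They were chosen by name, as every non-control probe whose gene name or current RefSeq symbol was 1 of these 8. All 8 had a probe, among 21292 gene symbols on the arrays. There were 12 such probes, 2 each for Csn1s2b, Csn3, Wap and Wfdc18 and 1 each for the other 4 genes.

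Expression was read on 4 single-colour (Cy3) arrays, 1 for each pool of sorted cells. The Meis1-CKO mice were K14-CreERT2 Meis1 fl/fl, with both alleles of Meis1 floxed, and the control mice, called WT in the labels, were K14-CreERT2 Meis1 fl/+. Both groups therefore carried the tamoxifen-inducible Cre and at least 1 floxed allele, and the control mice had 1 normal allele. Mice were 3 weeks old and received tamoxifen (1 mg daily for 3 days), and 4 days later CD45- EpCAM+ cells were sorted, after beads had removed cells bearing CD45 or Ter119. The cells of 6 mice made a pool, and a genotype had 2 pools, from separate experiments, so n = 2 pools a group throughout. Cre is driven by the promoter of keratin 14, a keratin of basal and medullary epithelial cells, so a TEC that never used this promoter would keep its Meis1 alleles. The labels' protocols record an amplification of cDNA from 10 ng of RNA.

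Caseins are the main proteins of milk and assemble into micelles, on which kappa-casein, the product of Csn3, forms the outer coat. In the mammary gland their genes are switched on by prolactin, whose receptor Prlr acts through the kinase Jak2 and the transcription factors Stat5a and Stat5b, together with glucocorticoid and C/EBP proteins. In the thymus the same genes belong to the tissue-restricted antigens that medullary TECs make in small amounts, many of them under the regulators Aire and Fezf2, so that T cells that react to them can be removed. Casein transcripts are among the well-known examples of such antigens in mouse medullary TECs.

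The sequences just upstream of 4 of the genes are shown because the pathways named above act there in the mammary gland. Each is the stretch of 250 bases before the RefSeq start site on the GRCm38.p6 assembly, 5′ to 3′ along the gene's own strand. Capitals mark matches to TTCNNNGAA, the palindromic element that STAT5 proteins bind, which is read the same on both strands. Csn1s1 lies on the plus strand (chr5:87665958-87666207), Csn2 on the minus strand (chr5:87699426-87699675), Csn1s2a on the plus strand (chr5:87774200-87774449) and Wfdc18 on the plus strand (chr11:83708754-83709003).
Csn1s1: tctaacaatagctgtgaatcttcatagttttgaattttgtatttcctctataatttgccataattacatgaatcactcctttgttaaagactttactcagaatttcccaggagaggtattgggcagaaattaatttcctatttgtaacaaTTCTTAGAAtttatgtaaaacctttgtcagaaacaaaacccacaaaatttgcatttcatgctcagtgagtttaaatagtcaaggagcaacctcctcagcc
Csn2: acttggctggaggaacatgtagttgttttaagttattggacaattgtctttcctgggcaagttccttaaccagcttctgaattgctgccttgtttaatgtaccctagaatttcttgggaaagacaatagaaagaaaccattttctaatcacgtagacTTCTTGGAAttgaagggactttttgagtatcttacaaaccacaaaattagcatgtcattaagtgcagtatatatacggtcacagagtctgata
Csn1s2a: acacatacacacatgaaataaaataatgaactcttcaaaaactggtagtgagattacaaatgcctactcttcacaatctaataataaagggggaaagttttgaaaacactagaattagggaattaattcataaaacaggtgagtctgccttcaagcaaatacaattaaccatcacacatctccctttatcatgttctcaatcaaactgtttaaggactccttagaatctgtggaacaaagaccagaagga
Wfdc18: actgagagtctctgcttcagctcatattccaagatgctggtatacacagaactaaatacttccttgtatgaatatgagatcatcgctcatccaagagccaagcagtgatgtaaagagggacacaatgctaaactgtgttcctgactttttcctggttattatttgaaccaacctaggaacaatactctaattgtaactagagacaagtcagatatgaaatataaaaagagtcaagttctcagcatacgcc

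Of the 8 genes, 6 had an upstream sequence in the RefSeq table, and Csn1s2b and Csn3 had none. The STAT5 element was present in 2 of the 6, at bases -100 to -92 of Csn1s1 (TTCTTAGAA) and -93 to -85 of Csn2 (TTCTTGGAA), counted back from the start site. It was present in 7.02% of all 32851 upstream sequences of this length. The other motifs were searched on both strands. The C/EBP element TTNNGNAA was found in 4 of the 6 and in 36.8% of all, so it is common in any stretch of this length. The core TGTTCT of the glucocorticoid receptor was found in Csn1s2a only (bases -59 to -54; 16.1% of all), TATAAA in Wfdc18 only (bases -31 to -26; 12.4% of all), and the MEIS core TGACAG in none of the 6 (15.9% of all). None of the matches overlapped another. These are matches of letters in a short window, with no measurement of binding behind them.

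A level below is the log2 of a probe's signal relative to the 75th percentile of its own array, so 0 is the level that 1 probe spot in 4 exceeds and each unit is a factor of 2. Levels are compared between arrays for 1 probe and not between probes, since probes differ in how brightly they read, so no order of the 8 genes by abundance is given. Probe positions refer to mm9, for which no gene annotation was used here, so exons and UTRs are not given. A probe called above background passed the scanner software's flag for a signal well above its background. Control 1 and Meis1-CKO 1 shared a slide and a scan (slide 1), as did control 2 and Meis1-CKO 2 (slide 2), and differences are therefore also given within each slide, always as Meis1-CKO minus control.

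On each array 58.6% to 63.6% of spots were above background, none was saturated, and the signal at the 75th percentile ran from 93.2 to 152. Across 16797 features Meis1-CKO 2 stood apart, with correlations of 0.857 to 0.885 with the other arrays against 0.936 to 0.943 among those, which describes the arrays and is no test. Each of the 12 TEC identity markers, among them Epcam, Krt5, Krt8 and Foxn1, was above background on all 4 arrays. Meis1 had 2 probes, of which only the probe that stood for the gene is given. It read -0.12 in control 1, -0.91 in control 2, -0.44 in Meis1-CKO 1 and -2.08 in Meis1-CKO 2 (limma adjusted p = 1.00). Since the floxed exons are not named in the sources at hand, it does not check the deletion.

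Transcripts of 5 of the 8 milk protein genes were detected in every pool, of both genotypes. These were Csn1s1, Csn1s2a, Csn2, Csn3 and Wfdc18. None of the 5 passed the test between genotypes (limma, adjusted p = 1.00 for each), and neither did any of the 16805 features tested (0.0%). At an unadjusted p under 0.05 there were also none among the 5, beside 467 of all features (2.78%). The pattern the 4 detected caseins had in common lay between the pools. Each was slightly higher in Meis1-CKO 1 than in control 1 and at least 2-fold lower in Meis1-CKO 2 than in control 2. For Csn1s1 and Csn3 the signal in Meis1-CKO 2 was near the lowest called above background. With normexp background correction only Csn2 stayed at least 2-fold lower.

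**Figure D1:**
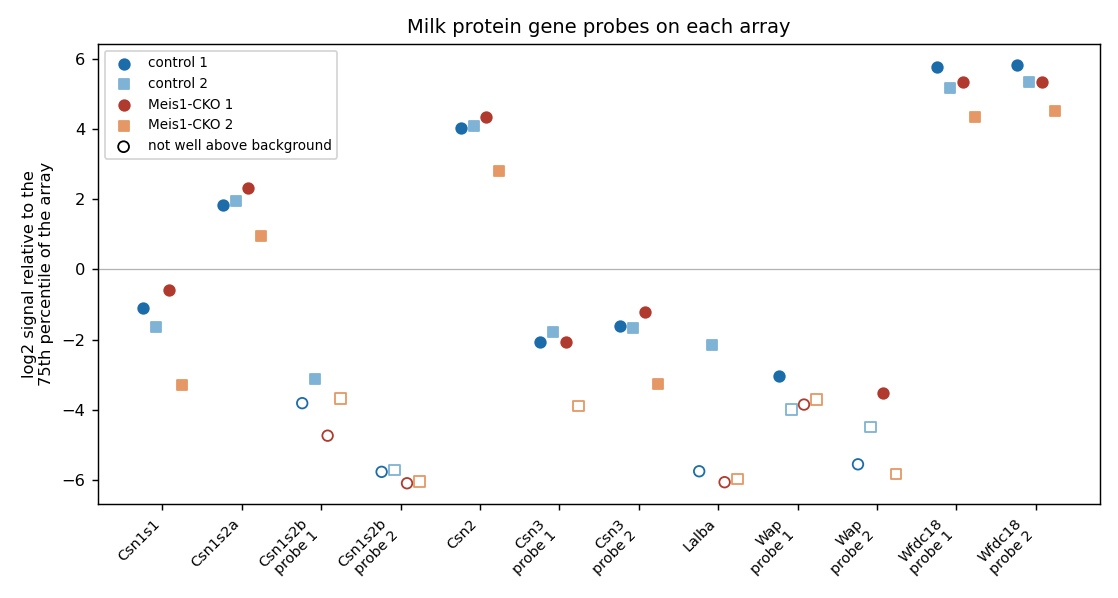
Level of every milk protein gene probe (y axis, log2 signal relative to the 75th percentile of the array) on each of the 4 arrays, with open symbols where a probe was not well above background; the 2 probes of a gene are numbered, and probe 2 of Csn3 and of Wfdc18 stood for the gene. Meis1-CKO 2 is the lowest array for Csn1s1, Csn1s2a, Csn2, both Csn3 probes and both Wfdc18 probes, and Csn1s2b, Lalba and Wap are above background on at most 1 array per probe.

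Csn2 encodes beta-casein. Its probe (chr5:88121767-88121826 on mm9, minus strand) read 4.04 in control 1, 4.10 in control 2, 4.35 in Meis1-CKO 1 and 2.80 in Meis1-CKO 2. The 2 control pools and Meis1-CKO 1 lay close together and Meis1-CKO 2 lay below all of them, so the genotypes overlapped. The difference was 0.31 on slide 1 and -1.29 on slide 2, where the Meis1-CKO signal was 2.45-fold lower. Over all pools it was -0.49 (SE 0.63, 95% interval -2.06 to 1.08, limma adjusted p = 1.00), which is within the spread between pools.

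Csn1s1 encodes alpha-s1-casein, which helps the other caseins leave the endoplasmic reticulum. Its probe (chr5:88111332-88111391, plus strand) read -1.11 in control 1, -1.64 in control 2, -0.60 in Meis1-CKO 1 and -3.29 in Meis1-CKO 2. Meis1-CKO 1 was the highest array and Meis1-CKO 2 the lowest, so the control pools lay between the Meis1-CKO pools. The differences were 0.51 on slide 1 and -1.65 on slide 2, a signal 3.15-fold lower. In Meis1-CKO 2 that signal was 15.6, near the lowest called above background on that array, 11.4. The fit gave -0.57 (SE 0.93, 95% interval -2.89 to 1.75, limma adjusted p = 1.00), the widest interval of the 5 genes.

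Csn1s2a encodes an alpha-s2-like casein, also known as gamma-casein in the mouse. Its probe (chr5:88217726-88217785, plus strand) read 1.85 in control 1, 1.97 in control 2, 2.32 in Meis1-CKO 1 and 0.96 in Meis1-CKO 2. The order of the arrays was that seen for Csn2, with Meis1-CKO 1 highest and Meis1-CKO 2 lowest. The differences were 0.48 on slide 1 and -1.0 on slide 2, a signal 2.00-fold lower. Over all pools the fit gave -0.26 (SE 0.59, 95% interval -1.73 to 1.21, limma adjusted p = 1.00).

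Csn3 had 2 probes. The brighter, which stood for the gene, covers 1953 bases of the genome (chr5:88354698-88356650, plus strand) with 60 bases of sequence, so it lies across at least 1 intron. It read -1.62 in control 1, -1.67 in control 2, -1.21 in Meis1-CKO 1 and -3.27 in Meis1-CKO 2. The second probe (chr5:88361449-88361508) read -2.08, -1.77, -2.06 and -3.89 on the same arrays, and was not above background in Meis1-CKO 2. Both probes were lowest in Meis1-CKO 2, and they differed on slide 1, by 0.41 for the first and by 0.02 for the second. On slide 2 the first was 3.02-fold lower and the second had a log2 difference of -2.12, which rests on a dim signal. The first probe had a signal of 15.8 in Meis1-CKO 2, near the lowest called above background on that array, 11.4. The fit gave -0.59 (SE 0.75, 95% interval -2.46 to 1.29, limma adjusted p = 1.00) for the first and -1.05 (SE 0.70, limma adjusted p = 1.00) for the second.

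Wfdc18 encodes a small secreted protein with a WAP domain, the fold of the whey acidic protein. Its 2 probes overlap by 50 bases and are no separate measurements. The probe that stood for the gene (chr11:83524741-83524800, plus strand) read 5.84 in control 1, 5.33 in control 2, 5.33 in Meis1-CKO 1 and 4.53 in Meis1-CKO 2. The other (chr11:83524751-83524810) read 5.76, 5.18, 5.33 and 4.36. Wfdc18 thus differed from the caseins on slide 1, where it was lower in the Meis1-CKO pool by both probes, with differences of -0.50 and -0.43. On slide 2 the differences were -0.80 and -0.82. Both Meis1-CKO arrays lay beyond both control arrays in 25.5% of all features and below them in 14.4%, and no casein was among these. For Wfdc18 control 2 and Meis1-CKO 1 were level by the first probe and overlapped by the second. The fit for the first gave -0.65 (SE 0.51, 95% interval -1.92 to 0.62, limma adjusted p = 1.00).

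The other 3 genes were at the edge of detection. Their probes are shown because the calls below rest on them. Each has 60 bases, and those printed map across an intron on mm9 (Csn1s2b chr5:88244139-88247990, plus strand; Lalba chr15:98311142-98311981, minus strand; Wap chr11:6536820-6537194, minus strand), as does the brighter Csn3 probe, so each matches spliced RNA.
Csn3: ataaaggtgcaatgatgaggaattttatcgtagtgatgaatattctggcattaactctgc
Csn1s2b: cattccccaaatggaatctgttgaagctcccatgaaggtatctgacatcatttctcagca
Lalba: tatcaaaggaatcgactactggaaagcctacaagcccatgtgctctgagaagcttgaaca
Wap: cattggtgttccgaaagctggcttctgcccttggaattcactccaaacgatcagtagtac

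Csn1s2b encodes a second alpha-s2-like casein. The printed probe was above background in control 2 only, at -3.13, with dim readings of -3.81 in control 1, -4.74 in Meis1-CKO 1 and -3.68 in Meis1-CKO 2. Its other probe (chr5:88246304-88246363) was above background on no array. No fold is given, because control 1 was dim too, so that only 1 control array of 2 was measured. Csn1s2b was thus detected in 1 pool of 4, where the other 4 caseins were detected in all.

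Lalba encodes alpha-lactalbumin, the subunit that turns galactosyltransferase into lactose synthase. Its signal was 30.5 in control 2, above background, and between 1.63 and 2.42 on the other 3 arrays, where values this low are replacements set by the scanner software and have no order. The level in control 2 was -2.16. A single pool therefore gave the only detection, and no fold is given because the mean of the control arrays is not above the floor of the Meis1-CKO arrays.

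Wap encodes the whey acidic protein of rodent milk. The printed probe was above background in control 1 only, at a level of -3.04, with dim readings of -3.99, -3.85 and -3.71 in control 2, Meis1-CKO 1 and Meis1-CKO 2. No fold is given here either, again because only 1 control array was measured. The other Wap probe (from base 6535486 of chromosome 11) was above background in Meis1-CKO 1 only, at -3.51, but the array files place it on only 24 bases of mm9, fewer than its 60, so what it reads is less sure. The 2 probes had their signal in different pools.

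The 2 Meis1-CKO pools were further apart than the 2 control pools for each of the 5 detected genes, as they were for 60.2% of all features. Meis1-CKO 1 minus Meis1-CKO 2 was 2.69 for Csn1s1, 2.06 for Csn3, 1.55 for Csn2, 1.36 for Csn1s2a and 0.80 for Wfdc18. Control 1 minus control 2 was 0.53 for Csn1s1, 0.05 for Csn3, -0.05 for Csn2, -0.12 for Csn1s2a and 0.50 for Wfdc18. For Csn1s2a, Csn2 and Csn3 the control pools were therefore nearly level while the Meis1-CKO pools differed more than 2-fold. A 2-fold gap between the Meis1-CKO pools was seen in 32.8% of all features.

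Each count of the detected caseins stands beside its share over all features. All 4 were highest in Meis1-CKO 1 and lowest in Meis1-CKO 2, an order found in 12.7% of 16797 features. Meis1-CKO 1 was highest in 21.7% of features. All 4 were higher on slide 1 (50.1% of features) and lower on slide 2 (56.3%), and 29.8% of features were both, while all 4 were at least 2-fold lower on slide 2, as were 17.1%. None of them was 2-fold different on slide 1, where 14.5% of features were. With Wfdc18, 5 of 5 detected genes were lowest in Meis1-CKO 2 (36.9% of features). The median difference of the 4 caseins was 0.45 on slide 1 and -1.44 on slide 2, beside 0.00 and -0.12 over all features. These 4 genes neighbour each other and share their pools, so they are not 4 separate observations of the genotype.

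Without Meis1-CKO 2 the differences of all 4 caseins turned positive, at 0.78 for Csn1s1, 0.44 for Csn3, 0.42 for Csn1s2a and 0.28 for Csn2, while Wfdc18 stayed lower at -0.25. Without Meis1-CKO 1, on the other hand, the median over the 5 genes was -1.27 and 3 of the 5 had an unadjusted limma p under 0.05, as did 16.8% of all features, with the lowest adjusted p = 0.149, for Csn1s1. Meis1-CKO 2 is then the only array of its group, the spread comes from the 2 control arrays, and the lone array is assumed to vary as they do. The sign of the casein difference thus depended on which Meis1-CKO pool was used. Within slides, the direction of each of the 5 genes was the same with normexp background correction, with quantile normalization and in the deposited value table. The value table could hardly differ, since its differences between arrays matched those of the values used here. The size was smaller with normexp, which gave slide 2 differences of -0.58 for Csn1s1, -0.48 for Csn3 and -0.86 for Csn1s2a, all short of 2-fold, and -1.21 for Csn2.

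**Figure D2:**
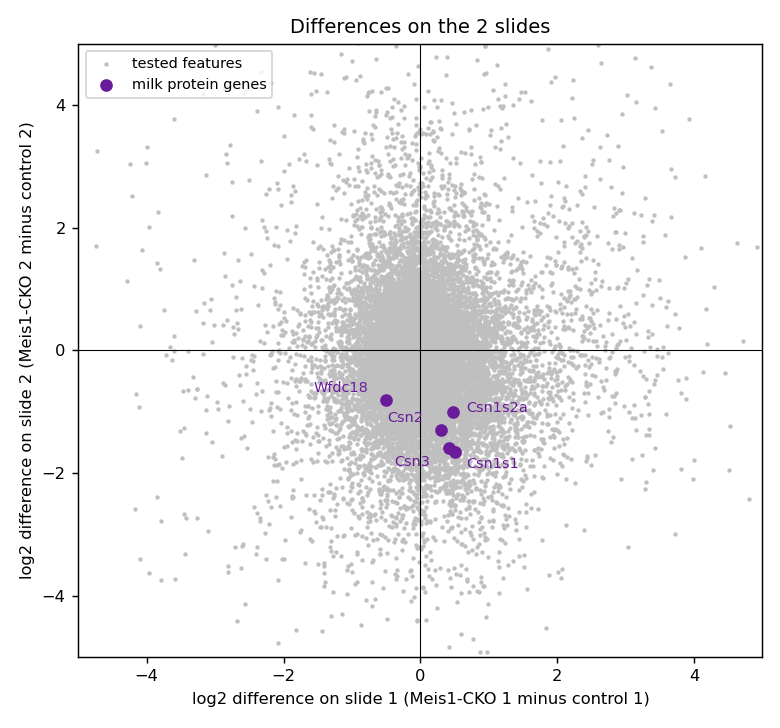
Log2 difference of Meis1-CKO minus control on slide 1 (x axis) and slide 2 (y axis) for tested features (grey) and the 5 detected milk protein genes (purple); 42 features beyond 5 log2 units are not drawn. The 4 caseins lie together at lower right, between 0.31 and 0.51 on slide 1 and between -1.0 and -1.65 on slide 2, and Wfdc18 is below 0 on both.

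Aire and Fezf2, the regulators of tissue-restricted antigens, were also lowest in Meis1-CKO 2, Fezf2 clearly and Aire barely. Aire read 2.50 in control 1, 4.59 in control 2, 3.03 in Meis1-CKO 1 and 2.37 in Meis1-CKO 2. Control 2 was the high array and the 3 others lay close together, so the slide 2 difference of -2.22 rests on the high control. On slide 1 the difference was 0.53 (fit -0.85, SE 0.78, limma adjusted p = 1.00). Control 1 minus control 2 was -2.09 for Aire and between -0.12 and 0.53 for the caseins. Fezf2 read 2.80, 2.68, 2.85 and 1.05 in the same order, with 0.05 on slide 1 and -1.63 on slide 2 (fit -0.79, SE 0.69, limma adjusted p = 1.00). Its 3 other arrays were thus level, whereas Csn2 and Csn3 were somewhat higher in Meis1-CKO 1 (0.31 and 0.41 on slide 1). Of 12 genes of mature medullary TECs, among them these 2, 11 were tested and none passed. In the fit 6 were higher and 5 lower (median 0.07; 0.05 on slide 1 and -0.25 on slide 2), and 4 were lowest in Meis1-CKO 2, where the costimulatory gene Cd86, which dendritic cells also express, was at 3.98 on slide 2.

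Other antigen genes known as Aire targets, which include genes of liver, gut and pancreas, had the same low array. Of 11 such genes besides the caseins 10 were on the arrays and 9 were tested. None passed the test, 8 were lower and 1 higher in the fit, and the median difference was -0.44 (-0.05 over all features). All 9 were lowest in Meis1-CKO 2 and lower on slide 2, with medians of 0.18 (slide 1) and -1.13 (slide 2). Of the 9, 5 were higher on slide 1, as the caseins were, and 4 lower. Smallest in size was Ins2, at -0.03 on slide 2, whose sign turned with normexp and with quantile normalization (0.01 and 0.02). The gut gene Fabp2 gave -0.11 and -2.03 on the 2 slides (fit -1.07, SE 0.77), the urinary protein gene Mup4 -0.31 and -1.14 (fit -0.73, SE 0.64), Fabp9 -0.45 and -1.02 (fit -0.74, SE 0.66) and Resp18 -0.25 and -0.62 (fit -0.44, SE 0.49). These 4, named for the smallest p of the list, were lower on both slides, and a choice by p favours genes with 1 sign on both.

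**Figure D3:**
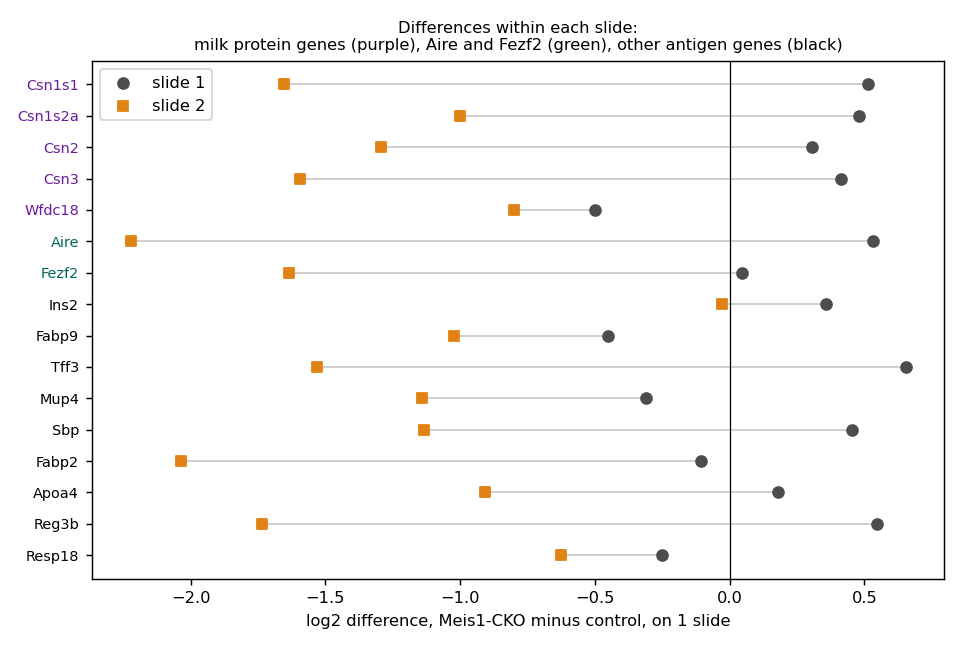
Log2 difference of Meis1-CKO minus control (x axis) on slide 1 (grey circles) and slide 2 (orange squares) for the 5 detected milk protein genes, for Aire and Fezf2 and for 9 other antigen genes; a line joins the 2 values of a gene. Every slide 2 value lies left of the slide 1 value of the same gene, and the 4 caseins have slide 1 values of 0.31 to 0.51.

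Markers of other cells also differed between the pools, and the lists did not all set the same array apart. The summed scaled signal of the 14 myeloid and dendritic genes was 30.8 in control 1, 38.2 in control 2, 35.2 in Meis1-CKO 1 and 118 in Meis1-CKO 2, and 10 of the 13 tested were highest there. Ptprc, which encodes CD45, the molecule the sort gated out, read 1.44, 1.19, -0.75 and 5.56. The 16 thymocyte and T cell genes summed to 58.8, 23.6, 9.5 and 55.8, lowest in Meis1-CKO 1, and Rag2 was above background on no array. Bright genes weigh most in such sums, among them Ptprc and, in control 1, Dntt (level 5.13). The median level of these 16 genes was 0.26, -0.38, -1.83 and 0.71 in the same order. That of the 14 myeloid and dendritic genes was 0.25, -0.05, -0.70 and 2.53. TEC identity markers summed to 465, 310, 346 and 210, with 10 of 12 lowest in Meis1-CKO 2, and the 7 fibroblast genes to 9.78, 4.00, 10.2 and 2.17. B cell genes summed to 5.01, 4.79, 3.71 and 10.3 and endothelial genes to 0.65, 0.47, 0.84 and 4.26. Single genes carried these last sums in Meis1-CKO 2, Jchain (level 3.01) and Kdr (1.84), while Blnk was lowest there and Cdh5, Plvap, Tie1 and Emcn were not above background.

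None of these lists had a gene that passed the test. Their part in the casein values was not tested. In pooled cells, fewer cells of a type and less RNA per cell cannot be told apart. On slide 2 the median difference was -1.44 for the caseins, -0.70 for the TEC identity markers and -1.51 for the fibroblast genes. On slide 1 these medians were 0.45, -0.13 and 0.48. Sex-linked genes, which were looked at outside the rule for named genes, also differed between pools. In the same order of arrays Xist, expressed from the inactive X chromosome of females, read 5.98, 4.32, 5.55 and 2.97. Eif2s3y, on the Y chromosome, read -1.69, 1.15, -5.77 (not above background) and 2.79. Both genes differed between the control pools, and more so between the Meis1-CKO pools. The detected caseins differed by at most 0.53 between the control pools and by 1.36 to 2.69 between the Meis1-CKO pools. The part of sex was not tested.

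**Figure D4:**
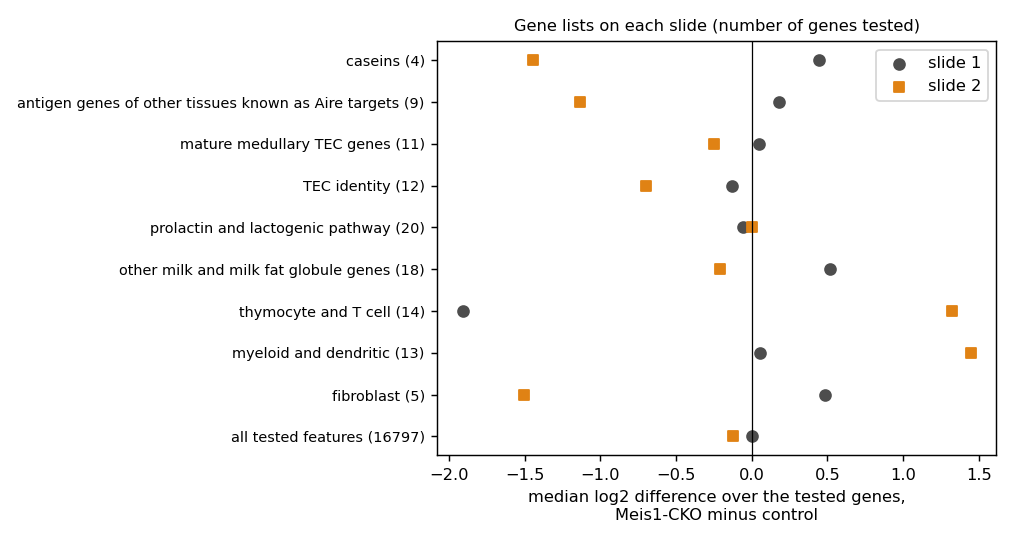
Median log2 difference of Meis1-CKO minus control (x axis) over the tested genes of each list, on slide 1 (grey circles) and slide 2 (orange squares); the number of tested genes stands beside each name. The caseins are at 0.45 and -1.44, the Aire-target antigens at 0.18 and -1.13, and the myeloid and dendritic genes at 0.05 and 1.45.

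The machinery that switches on milk genes in the mammary gland was largely detected, without a common order of the arrays. Of 24 genes of the prolactin and lactogenic pathway, 20 were tested and none passed. In the fit 8 were higher and 12 lower (median -0.15), and 7 of the 20 were lowest in Meis1-CKO 2. The list's medians were -0.06 on slide 1 and 0.00 on slide 2, in contrast to 0.45 and -1.44 for the caseins, a contrast that was not tested.

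At the head of the pathway, the hormone gene Prl was above background in control 1 and Meis1-CKO 1 only, both on slide 1, at -1.09 and -1.95. Its receptor Prlr read -1.39, -1.59, -1.11 and -2.79, highest in Meis1-CKO 1 and lowest in Meis1-CKO 2, as the caseins were (0.28 on slide 1, -1.20 on slide 2; fit -0.46, SE 0.66, limma adjusted p = 1.00). The kinase Jak2 went the other way, at 0.14 and 2.29 (fit 1.21, SE 0.79). Stat5a read 1.88, 2.72, 1.80 and 1.90, with control 2 the high array, and Stat5b read 3.55, 3.69, 2.82 and 3.66, with Meis1-CKO 1 the low one. Neither Stat5 gene was lowest in Meis1-CKO 2.

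Nr3c1, the glucocorticoid receptor, read 1.41, 1.28, 1.26 and 2.46 and was highest in Meis1-CKO 2 (fit 0.52, SE 0.56). Elf5, a transcription factor of the milk-secreting cells, was above background in control 2 (-3.02) and Meis1-CKO 1 (-3.10) only. The estrogen receptor gene Esr1, whose product tamoxifen binds, was at -0.09 on slide 1 and -2.78 on slide 2 (fit -1.43, SE 1.15). Tnfsf11, which encodes RANKL, was at -1.66 and 0.13 (fit -0.76, SE 0.61), and Gata3, a factor of luminal mammary cells and of T cells, at -0.82 and -0.47 (fit -0.64, SE 0.66). All of these had a limma adjusted p = 1.00 where tested.

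Genes of other milk and milk fat globule proteins were mixed. Of 23, 18 were tested and none passed, with 10 higher and 8 lower in the fit (median 0.09) and medians of 0.51 on slide 1 and -0.21 on slide 2. The 4 genes of the list with the smallest p come first, a choice that favours genes with 1 sign on both slides. Of these, the antimicrobial proteins lipocalin 2 (Lcn2) and lactoferrin (Ltf) and xanthine oxidoreductase of the fat globule (Xdh) were higher on both slides. Lcn2 was at least 2.40-fold higher over both, a bound because it was above background on neither control array. It entered the test only through the Meis1-CKO arrays. Ltf gave 0.79 and 1.15 (fit 0.97, SE 0.45) and Xdh 0.58 and 1.27 (fit 0.93, SE 0.50). The last of the 4, Pthlh, a hormone secreted into milk that mobilises calcium, was lower on both (-1.02 and -1.98, fit -1.5, SE 0.65). Of the other tested genes, Plin2 (0.16 and 3.73), Cel (1.27 and 0.31) and Cidea (0.83 and 0.02) were also higher on both slides, and Lpo (-0.15 and -2.11) lower. Each had a limma adjusted p = 1.00, so none of them passed the test. In each of these named genes the levels of the genotypes did not overlap, as in 25.5% of all features. A choice by p or by 1 sign on both slides favours such genes, so this is no comparison with that share.

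Wfdc18 belongs to the WAP-domain family, of which 12 other members were on the arrays and 7 were tested. None passed, and 3 were higher and 4 lower, with medians of 0.37 on slide 1 and -0.32 on slide 2. Of the 7, 4 were higher on slide 1 and lower on slide 2, the direction of the caseins (29.8% of all features), and were lowest in Meis1-CKO 2. Wfdc12 (1.45 and 0.81; fit 1.13, SE 0.55) was higher on both slides. So was Wfdc15b (0.60 and 2.53; fit 1.56, SE 0.83), whose slide 2 value rests on a dim reading in control 2. Wfdc17 was at -0.14 and 0.90, and Wfdc15a, 1 of the 4, at 0.37 and -1.14. The other 3 of the 4, named after their values were seen, were Slpi (0.56 and -0.88), Wfdc2 (0.37 and -0.48) and Wfdc21 (0.26 and -0.32). Wfdc18 itself was lower on both slides.

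The 5 casein genes lie in 1 cluster on chromosome 5, in the order Csn1s1, Csn2, Csn1s2a, Csn1s2b and Csn3, with Prr27, Odam and BC037156 between the last 2. Together with 6 protein-coding genes on each side, the RefSeq table puts 20 genes in this stretch, of which 15 are not caseins. Of those 15, 4 had no probe, 5 were above background on no array (Prr27, Odam, Cabs1, Smr3a and Prol1, which include genes of enamel, saliva and testis) and 6 were tested. Detection was thus interrupted inside the cluster, with Csn1s2b, Prr27 and Odam dim between Csn1s2a and Csn3.

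Of the 6 tested neighbours, 5 were lower on slide 2, 4 were higher on slide 1 and 3 did both. Of these 5, only Sult1e1 and Sult1d1 were above background on all arrays, and the other 3 (Amtn, Ugt2b38 and Ugt2a1) were dim in Meis1-CKO 2, so the size of their slide 2 difference is not given. Next to Csn1s1 lies Sult1e1, estrogen sulfotransferase, which read -0.43, -0.24, -0.16 and -1.93, with 0.26 on slide 1 and -1.68 on slide 2 (fit -0.71, SE 0.68). Amtn, of enamel, at the other end, gave 0.37 on slide 1. Sult1d1, 1 gene further out than Sult1e1, was at -0.40 and -0.38, so the pattern was not shared by every neighbour. Sult1b1 was above background on both Meis1-CKO arrays and on neither control array (at least 1.62-fold higher, limma adjusted p = 1.00). It entered the test only through the group where it was high. Its unadjusted p under 0.05, the only 1 of the stretch, rests on dim control readings and is not read as a difference. Ugt2b38, at 3.03 on slide 1, and Ugt2a1, at -0.32, complete the tested genes.

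**Figure D5:**
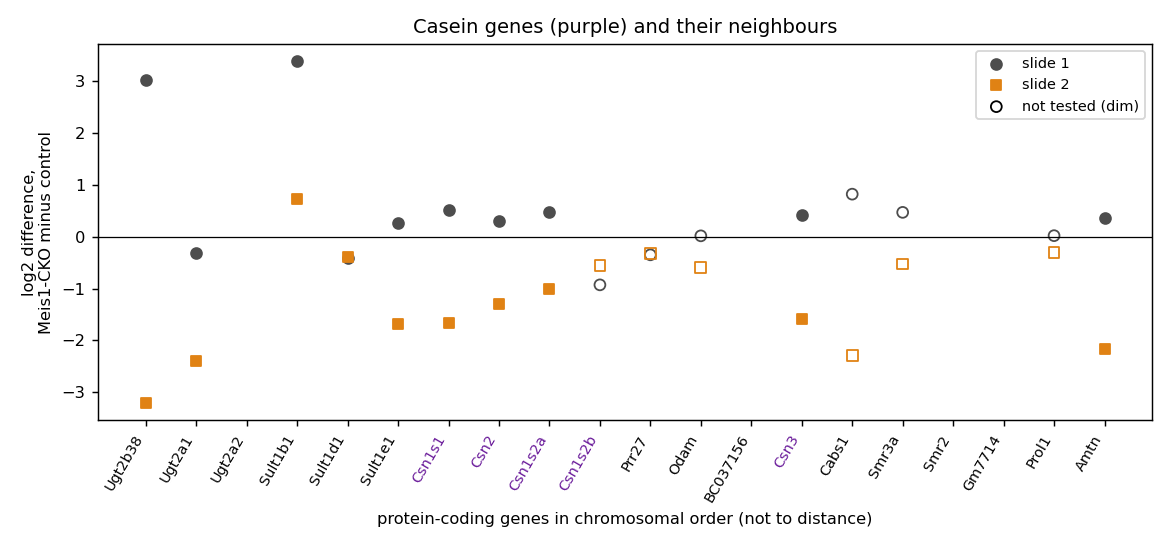
Log2 difference of Meis1-CKO minus control (y axis) on slide 1 (grey circles) and slide 2 (orange squares) for the casein genes (purple names) and their protein-coding neighbours in chromosomal order, not to distance; open symbols were not tested, a gene without symbols had no probe, and the slide 2 values of Ugt2b38, Ugt2a1 and Amtn and both values of Sult1b1 rest on dim readings. The tested caseins and Sult1e1 lie between 0.26 and 0.51 on slide 1 and between -1.0 and -1.68 on slide 2.

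The likeness of 2 genes over the 4 arrays was measured as the distance between their log2 profiles, each centred on its own mean, which is 0 for profiles that run in parallel. Csn1s2a and Csn2 were the closest pair, at 0.27, and 1.10% of features lay closer to Csn1s2a than Csn2 did. Csn2 and Csn3 were 0.38 apart, with 2.52% of features closer to Csn2. Csn1s1 and Csn3 were 0.56 apart, with 0.90% closer to Csn1s1 and 3.43% closer to Csn3. Csn1s2a and Csn3 were 0.61 apart, with 10.5% closer to Csn1s2a and 4.25% closer to Csn3. Csn1s1 and Csn2 were 0.91 apart, with 4.76% closer to Csn1s1 and 21.9% closer to Csn2. Csn1s1 and Csn1s2a were 1.09 apart, with 7.97% of features closer to Csn1s1 and 41.4% closer to Csn1s2a. In this pair the Meis1-CKO pools were further apart in Csn1s1 and the control pools were in the opposite order. Wfdc18 was 0.68 from Csn2 and 1.34 from Csn1s1. With 4 arrays, 3 of them alike, such distances describe these pools and say little of single genes: 840 of 12673 genes were within 0.5 of Wfdc18.

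By the same measure the 5 genes nearest to Wfdc18, picked by the naming rule because its probe gave the brightest reading, were Klra16 (0.07), Cplx2 (0.08), Olfr611 (0.09), Gm6583 (0.10) and Hmg20b (0.11), among 12673 genes with a symbol that were above background on all 4 arrays. None of them is on the lists of milk genes used here. The gene nearest to Csn1s2a, picked after the values were seen, was Lpl, lipoprotein lipase, an enzyme that supplies fatty acids to milk, at 0.03. Krt16 came next at 0.05, and 904 genes were within 0.5. Nearest to the other detected caseins were Il5ra (Csn1s1), Mtarc1 (Csn2) and Cavin2 (Csn3). Neither these nor Krt16 are on the lists of milk genes. Lpl read -0.82 and -0.74 in the control pools and -0.38 and -1.72 in the Meis1-CKO pools, so it was highest and lowest in the same arrays as the caseins.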

How the data were processed

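The members and the gene lists set beside them were chosen with earlier results of these data known. The deposited scanner files hold intensity values on a linear scale; per the file headers, Agilent Feature Extraction (version 9.5.3.1) had subtracted background within each array and placed probes on mm9. The deposited value table holds log2 values with a row per probe, centred on the row's median (column medians 0.04, 0.09, -0.06 and -0.12). How it was made is not stated, but over 20818 probes its differences between arrays matched those of the scaled scanner values (slope 1, correlation 1).

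From the 45018 spots of an array, 1639 control spots and 63 to 78 outlier spots were left out. The log2 signal minus the 75th percentile of the array was used. Features were tested where both arrays of 1 group or more had the probe above background (24266 probes, 16805 features), the brightest probe standing for its gene. Of 41174 probes, 26690 were named by RefSeq accession, 5189 by a current symbol and 952 by a synonym; 1515 kept the name in the files and 6828 had none. Groups were compared with limma 3.58.1 (lmFit, eBayes; R 4.3.3; 2 residual and 5.52 total degrees of freedom), with Benjamini-Hochberg adjustment over all features and a threshold of 0.05, and the fit was tested on simulated data. The p-values measure the spread between pools, and the number of arrays limits the precision.

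Named genes are all 8 members, the 5 nearest in profile to the brightest member, up to 4 per list with the smallest p, and Aire, Prlr, Stat5a, Stat5b, Elf5 and Nr3c1; any other name was chosen after its values were seen. The bound "at least" sets a group's mean against the other group's floor. On each array this floor is the lowest signal called above background, or the dim reading where that is higher. The bound is given only where both arrays of the first group were above background. Arrays with the same replicate number shared a slide and a scan, per the file headers, and deviated together weakly (correlation 0.13). Differences are therefore given within each slide, and the fit with a replicate block is an alternative. The other alternatives were normexp background correction, quantile normalization, the deposited value table, other filters on dim probes, the mean of a gene's probes and leaving out each array.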

Additional observations from a re-analysis of the deposited data

How the results depend on the processing

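Over 11 alternatives, 51 of 55 differences of the 5 tested genes kept their direction and stayed above the threshold. The 4 that reversed were the caseins without Meis1-CKO 2 (Csn1s1 0.78, Csn3 0.44, Csn1s2a 0.42 and Csn2 0.28). The count says little of robustness, since several alternatives could not turn a direction. The filters on dim probes and the replicate block left each difference as it was (-0.57 for Csn1s1). The deposited value table has the same scaling, and the mean of probes changes nothing for a gene with 1 probe. With normexp background correction the differences were -0.15 for Csn1s1 and -0.18 for Csn3. Leaving out each array in turn gave -1.92 to 0.78 for Csn1s1, -0.94 to 0.42 for Csn1s2a, -1.27 to 0.28 for Csn2, -1.62 to 0.44 for Csn3 and -1.05 to -0.25 for Wfdc18. No member passed under any alternative; the lowest limma adjusted p was 0.149, without Meis1-CKO 1, and 0.708 with all arrays kept. Across all features none passed, with 182 to 1011 at an unadjusted p under 0.05, except that 318 passed (199 higher, 119 lower) without Meis1-CKO 1, so leaving out 1 array gave from 0 to 318; Meis1-CKO 2, which stood apart, is then alone in its group, and the spread comes only from the 2 control arrays. With the replicate number as a block, which is also the slide, 0 features passed and 662 had an unadjusted p under 0.05, and no call among the members moved. With no filter on dim probes, Csn1s2b, Lalba and Wap did not pass either; their differences rest on dim readings and are not given. Signal over background limits these 3 genes.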
